A study of Mus musculus with 159 samples.

Results

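The segments named Other were compared between regions of interest (ROIs) rich in MARCO+ macrophages (MARCOHi) and ROIs poor in them (MARCOLo). Of 159 deposited segments, 49 were Other segments, 28 from MARCOHi ROIs and 21 from MARCOLo ROIs. Livers 1 to 4 gave 6, 8, 7 and 7 MARCOHi and 7, 5, 6 and 3 MARCOLo segments. The class came from the sample names, except for 1 ROI of liver 4 whose library name has none and whose title gives MARCOLo. GeoMx is a spatial method in which released probe tags are collected from a stained area of a tissue section. The Other area was what remained of an ROI after the areas stained for DESMIN (hepatic stellate cells, HSCs), for MARCO with IBA1 (MARCO+ macrophages) and for IBA1 alone were masked out. ROIs were picked by hand for their MARCO staining, so MARCO was part of the choice. Per the methods, the livers came from wild-type C57BL/6 mice aged 8 weeks at the start. The study used both sexes, and the sex of these 4 mice is not given. The mice were given CCl4, a hepatotoxin that causes fibrosis, 2 times a week for 6 weeks. MARCO+ bone marrow–derived macrophages went to 2 mice and saline to 2 mice at weeks 3 and 5. The sample labels call livers 1 and 3 treated CCl4 with fibrosis, and livers 2 and 4 control and healthy, whereas the methods give CCl4 to all 4. No label links a liver to a transfer, so each pair is called by its label. All 607 genes of the table were tested. The authors had reduced the table to genes of stellate cells to limit signal from hepatocytes.

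Quiescent HSCs store vitamin A. During chronic injury they become matrix-producing cells that deposit fibrillar collagens, small leucine-rich proteoglycans and elastic fibre proteins. MARCO is a scavenger receptor carried by a subset of liver macrophages. The table held 0 of the hepatocyte, cholangiocyte and lymphocyte markers listed for this comparison, so those cell types could not be followed. It held 2 endothelial and 3 macrophage markers, whose values are given below.

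The depth of Other segments ran from 75571 to 448875 recovered counts, with a median of 222973.5 in MARCOHi and 204150 in MARCOLo ROIs. Within livers 1 to 4 the medians were 149140.5, 101210, 261570 and 272495 in MARCOHi and 165634, 255935, 196485 and 257505 in MARCOLo ROIs, so that MARCOHi segments were shallower in livers 1 and 2 and deeper in livers 3 and 4. The part of depth in the results was not tested. The segment labels were checked against markers. All 18 quiescent HSC genes in the table were higher in HSC than in Other segments in 4 of 4 livers, with a median log2 level difference of 1.38. The same held for 250 of all 607 genes. HSC segments had an upper quartile of only 3 to 30 recovered counts, and the smallest value of each was 1 or 2 counts. The part of these low counts in the level difference was not tested. Marco had a median normalized value of 308 in the 45 MARCO+ segments and 10.8 in the 49 Other segments. The first principal component held 38.3% of the variance of Other segments. On it, 6 ROIs of liver 3, 3 of each class, lay at 4.47 to 8.51, apart from the other 7 ROIs of that liver at 1.42 to 2.11. Counts of called genes and of the main gene lists, and Marco, are also given without these 6 ROIs, an alternative chosen after seeing the data.

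Promoter sequence is shown for 3 of the genes that passed the test below and have an entry in the RefSeq promoter table (GRCm38.p6), to place them in the genome. Each line gives the 250 bases before the transcription start, 5′ to 3′ on the strand of the gene. The capitals mark TATAAA or CCAAT, searched on both strands together with GGGCGG, and none of the 3 motifs overlapped another here. Gstm2 lies at chr3:107986421-107986670 on the minus strand, Col3a1 at chr1:45311288-45311537 on the plus strand and Hsd11b1 at chr1:193242361-193242610 on the minus strand.
Gstm2: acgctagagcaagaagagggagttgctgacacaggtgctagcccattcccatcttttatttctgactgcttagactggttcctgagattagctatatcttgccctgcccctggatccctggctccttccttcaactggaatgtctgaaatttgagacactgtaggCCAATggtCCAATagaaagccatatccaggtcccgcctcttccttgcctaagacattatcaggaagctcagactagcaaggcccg
Col3a1: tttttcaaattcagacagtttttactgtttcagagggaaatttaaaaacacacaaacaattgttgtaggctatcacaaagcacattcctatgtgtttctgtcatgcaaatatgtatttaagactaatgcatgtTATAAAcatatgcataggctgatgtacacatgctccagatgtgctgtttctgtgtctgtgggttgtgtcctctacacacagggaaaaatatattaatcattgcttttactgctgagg
Hsd11b1: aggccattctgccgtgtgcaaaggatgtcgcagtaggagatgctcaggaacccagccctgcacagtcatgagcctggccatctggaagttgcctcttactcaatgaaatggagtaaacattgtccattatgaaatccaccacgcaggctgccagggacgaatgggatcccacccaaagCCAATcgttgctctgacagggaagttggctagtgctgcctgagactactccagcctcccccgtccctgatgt
Gstm2 held 2 CCAAT matches, Hsd11b1 held 1 and Col3a1 held 1 TATAAA match. Over 32851 promoters of the same length, CCAAT occurred in 33.8%, TATAAA in 12.4% and GGGCGG in 32.7%. A match is a description of these letters only.

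In Other segments, 10 genes differed between MARCOHi and MARCOLo ROIs. Matrix genes were among the 8 that were lower in MARCOHi ROIs: Col1a1 and Col3a1, chains of the fibrillar collagens, and Dcn (decorin), a proteoglycan that binds collagen. The largest difference was in Gstm2, a glutathione transferase of detoxification. Tsc22d1 (a transcription regulator induced by TGF-beta), Anxa2 (a phospholipid-binding annexin), Dynll1 (a dynein light chain) and Rgs5 (a regulator of G protein signalling, marker of pericytes) were lower too. Serping1, the inhibitor of complement C1, and Hsd11b1, which regenerates active glucocorticoid, were higher. Segments were averaged within each liver and ROI class, put on the log2(value + 1) scale, and compared within livers by limma with Benjamini-Hochberg adjustment. The 10 genes were 1.65% of the genes tested, with 0.329% called higher and 1.32% called lower, and 119 genes had an unadjusted p below 0.05. The median difference over all genes was -0.01. Re-centring each segment on its median, with means of log2 values, gave 32 genes, 16 higher and 16 lower. Means of log2 values without re-centring gave 25. Without the 6 ROIs of liver 3 there were 19 genes, 8 higher and 11 lower, and all 10 genes passed. The count changed with the livers used: leaving out liver 1, 2, 3 or 4 gave 1, 21, 0 and 2 genes. Of the 10 genes, 1, 9, 0 and 1 still passed. Each of the 10 had the same sign in 4 of 4 livers, so its direction could not turn when 1 liver was left out.

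**Figure D1:**
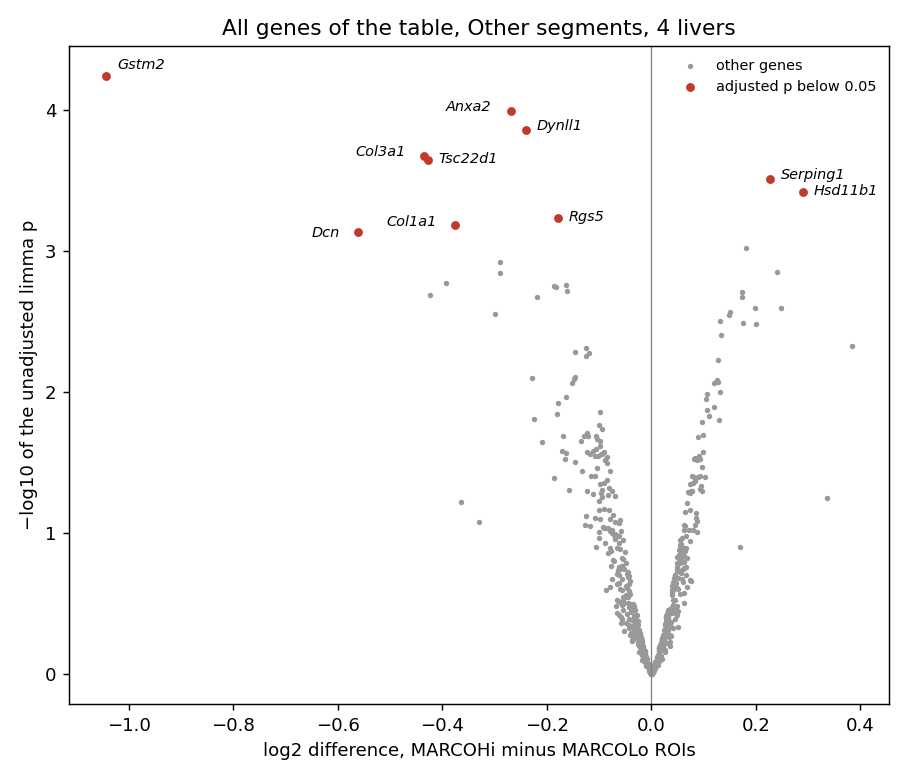
Log2 difference between MARCOHi and MARCOLo ROIs in Other segments (x axis) against −log10 of the unadjusted limma p (y axis), 1 point for each of 607 genes. The 10 genes with an adjusted p below 0.05 are named, and Gstm2 lies farthest to the left at -1.04.

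Gstm2 was the gene with the largest fitted difference. In liver 1, its normalized value ran from 7.87 to 21 (median 14.7) in MARCOHi and from 23.4 to 68.2 (median 32.1) in MARCOLo segments. In liver 2, it ran from 8.74 to 29.3 (median 14.7) and from 26.1 to 60.2 (median 43.9). The classes did not overlap in liver 1, and in liver 2 the MARCOHi segments lay below the lowest MARCOLo segment in 7 of 8 cases. In liver 3, values ran from 19 to 61.8 (median 43.9) in MARCOHi and from 56.5 to 120 (median 69.4) in MARCOLo segments. In liver 4, they ran from 7.27 to 27.9 (median 22.7) and from 26.6 to 39.1 (median 27.9). In livers 3 and 4, 6 of 7 and 5 of 7 MARCOHi segments lay below every MARCOLo segment. On the log2 scale the level was 4.46 ± 0.64 (SD, n = 4 livers) in MARCOHi and 5.50 ± 0.54 in MARCOLo ROIs, a difference of -1.04 (SE 0.13, limma adjusted p = 0.0273). This is a fold of 0.485. In liver 1, the 2 classes did not overlap for 1.32% of all genes.

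**Figure D2:**
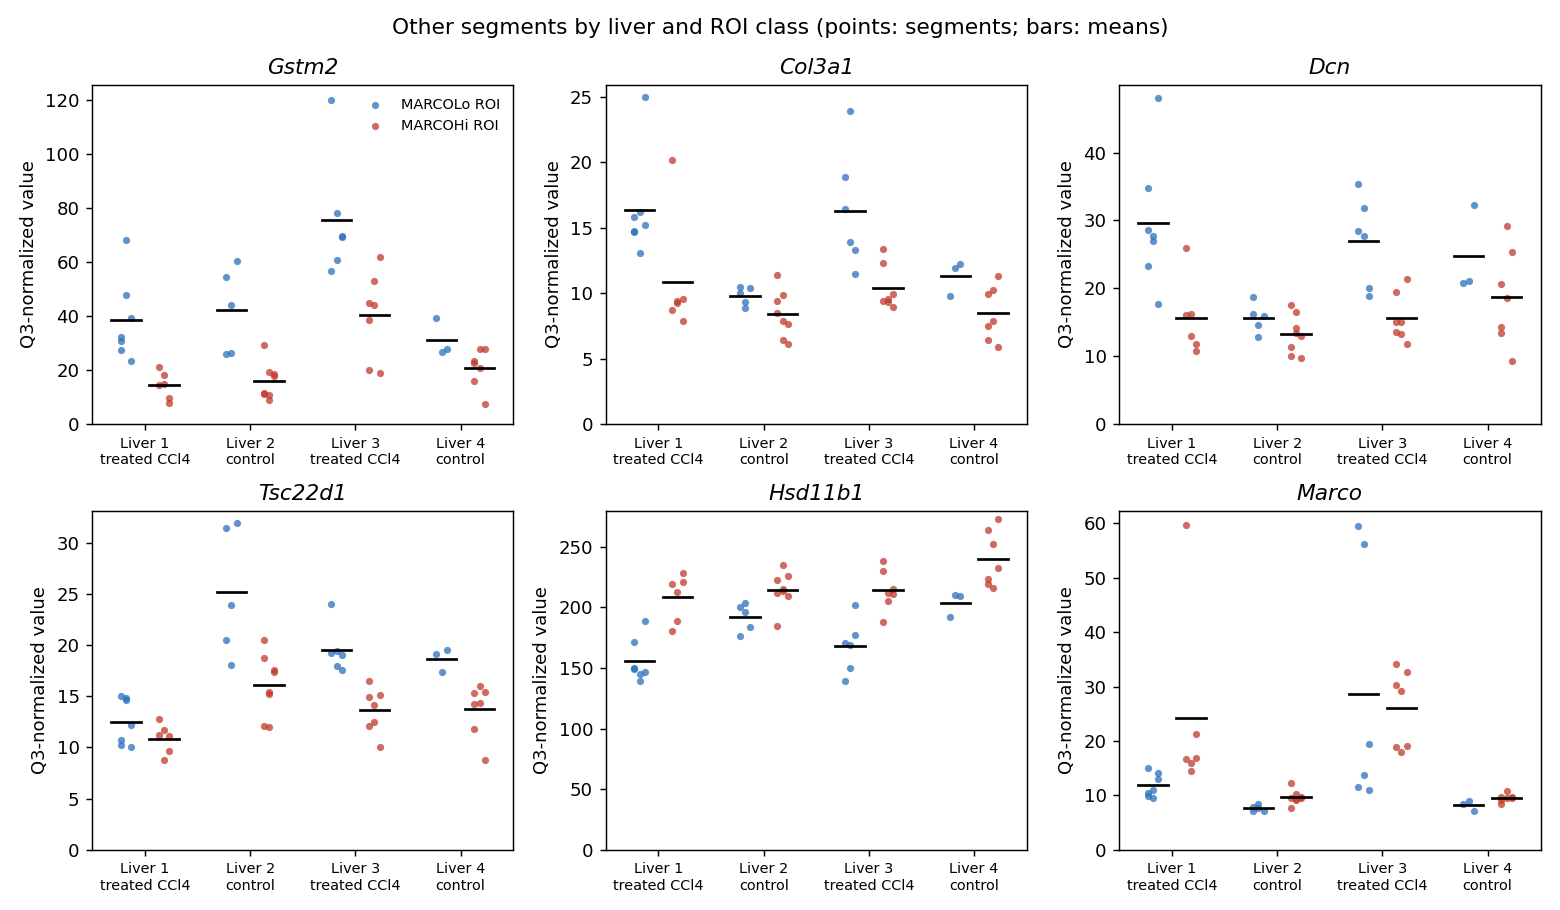
Q3-normalized value (y axis) of 6 genes in the Other segments of 4 livers, by ROI class. Each point is 1 segment and each bar the mean of its class. Gstm2, Col3a1, Dcn and Tsc22d1 have lower means in MARCOHi ROIs in every liver, Hsd11b1 has higher ones, and Marco has lower ones in liver 3.

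Col3a1 segments in liver 1 ran from 7.87 to 20.2 (median 9.35) in MARCOHi and from 13 to 25 (median 15.2) in MARCOLo ROIs. In liver 2 they ran from 6.12 to 11.4 (median 8.17) and from 8.88 to 10.5 (median 10). The fall in liver 2 was the smallest of the 4, and the ranges of the classes overlapped in all 4 livers. In liver 3 the values were 8.97 to 13.4 (median 9.59) and 11.5 to 23.9 (median 15.2). In liver 4 they were 5.92 to 11.3 (median 7.86) and 9.76 to 12.2 (median 12). The difference was -0.43 (SE 0.06, limma adjusted p = 0.0273), and all 4 livers were lower. Dcn segments in liver 1 ran from 10.8 to 25.9 (median 14.5) and from 17.7 to 48 (median 27.6), and in liver 3 from 11.8 to 21.4 (median 15) and from 18.8 to 35.4 (median 28.1). In both livers 5 MARCOHi segments lay below every MARCOLo segment. In liver 2 Dcn ran from 9.76 to 17.5 (median 13.3) and from 12.8 to 18.8 (median 16). In liver 4 it ran from 9.29 to 29.2 (median 18.6) and from 20.8 to 32.2 (median 21.1). Dcn fell by 0.56 (SE 0.10, limma adjusted p = 0.0441), a fold of 0.678. Col1a1 had the lowest level of the 3 matrix genes, with class means of 4.84 to 6.3 in MARCOHi and 6.74 to 9.9 in MARCOLo ROIs. It fell by 0.38 (SE 0.07, limma adjusted p = 0.0438) and did not overlap between classes in liver 4, where that held for 5.77% of all genes. Fewer matrix-producing cells in an area and less RNA per cell cannot be told apart in such segments. The summed level of the 18 quiescent HSC genes moved with these genes, at 138.3, 126.1, 152.7 and 137 in MARCOHi and 171.5, 133.7, 170.7 and 149.9 in MARCOLo ROIs of livers 1 to 4. Its part in the matrix result was not tested.

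Among the other genes that fell, Tsc22d1 had no overlap between classes in 2 livers, which held for 0.329% of all genes. In liver 3 alone it held for 0.659%. In that liver its segments ran from 10.1 to 16.5 (median 14.2) in MARCOHi and from 17.5 to 24 (median 19.1) in MARCOLo ROIs, and in liver 4 from 8.77 to 16 (median 14.4) and from 17.4 to 19.5 (median 19.1). It fell by 0.43 (SE 0.06, limma adjusted p = 0.0273). Anxa2 fell by 0.27 (SE 0.04) and Dynll1 by 0.24 (SE 0.03), both with a limma adjusted p of 0.0273. Rgs5 fell by 0.18 (SE 0.03, limma adjusted p = 0.0438), with per-liver differences from -0.15 to -0.22. The per-liver differences ran from -0.19 to -0.61 for Tsc22d1, from -0.22 to -0.36 for Anxa2 and from -0.20 to -0.31 for Dynll1. Hsd11b1 rose by 0.29 (SE 0.05, limma adjusted p = 0.0329), a fold of 1.22. In liver 4 its segments ran from 216 to 273 (median 232) in MARCOHi and from 192 to 210 (median 209) in MARCOLo ROIs, with no overlap, as for 5.77% of all genes in that liver with its 3 MARCOLo segments. In livers 1, 2 and 3 its ranges overlapped, and 5 of 6, 7 of 8 and 6 of 7 MARCOHi segments lay above every MARCOLo segment. Serping1 rose by 0.23 (SE 0.04, limma adjusted p = 0.0313), and its segments in liver 4 ran from 192 to 249 (median 205) and from 179 to 186 (median 183). Its ranges also overlapped in livers 1, 2 and 3, where 4 of 6, 7 of 8 and 3 of 7 MARCOHi segments lay above every MARCOLo segment. Both genes were higher in MARCOHi ROIs in 4 of 4 livers.

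**Figure D3:**
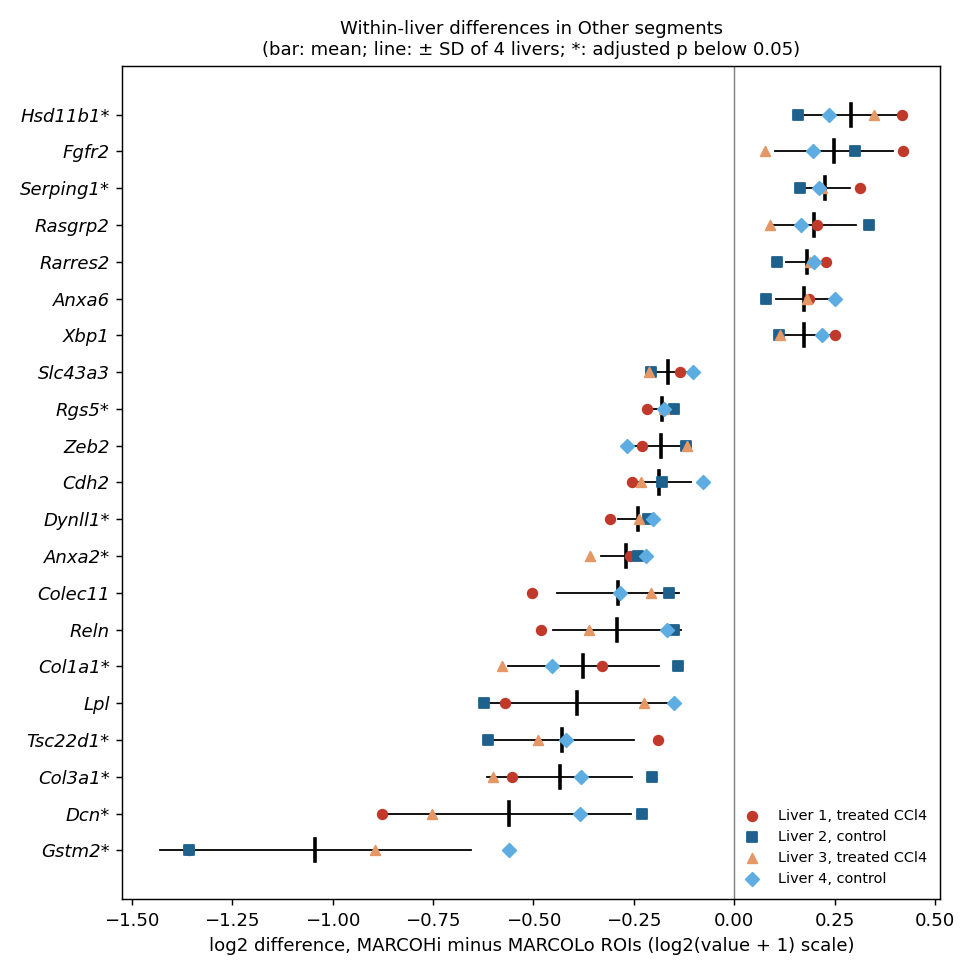
Log2 difference, MARCOHi minus MARCOLo ROIs, of 21 genes in Other segments (x axis). Each symbol is 1 liver, the vertical bar is the mean of 4 livers and the line is ± 1 SD. An asterisk marks the 10 genes past the threshold, and every gene shown has the same sign in 4 of 4 livers because the rule that chose the genes required it (26.5% of all genes have 1 sign).

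Of the genes next in line by p that did not pass, 11 are given here. The 5 with higher values were Rarres2 (the adipokine chemerin) at 0.18, Anxa6 at 0.17, Xbp1 (a transcription factor of the unfolded protein response) at 0.17, Fgfr2 (a fibroblast growth factor receptor) at 0.25 and Rasgrp2 at 0.20. Their limma adjusted p ran from 0.0527 to 0.0614. The 6 with lower values were Colec11 (a collectin of the complement lectin pathway) at -0.29, Reln (reelin) at -0.29, Lpl (lipoprotein lipase) at -0.39, Slc43a3 at -0.16, Cdh2 (N-cadherin) at -0.19 and Zeb2 at -0.18. Their limma adjusted p was 0.056.

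Gene lists were described by counts and medians, beside the median of -0.01 over all genes. Of all 607 genes, 325 had lower values in MARCOHi ROIs, 73 of them with an unadjusted p below 0.05, and 282 had higher values, 46 of them with an unadjusted p below 0.05. All 11 collagen chains had lower values in MARCOHi ROIs, of which 2 passed (1.32% of all genes were called lower), and their median was -0.10. Without the 6 ROIs of liver 3, 10 of the 11 were lower and 2 passed. Values of the basement membrane chains Col4a1 and Col4a2 were -0.03 and -0.03. The 4 small leucine-rich proteoglycans were lower, 1 passing, with a median of -0.22. Of these, Bgn (biglycan) had -0.30 and Lum (lumican) -0.13. Among 20 matrix glycoproteins and elastic fibre genes, 0 passed, 6 were higher and 14 lower, from Ecm1 at -0.42 (limma adjusted p = 0.056) to Ltbp4, which binds latent TGF-beta, at 0.13. At an unadjusted p below 0.05, 5 of them were lower and 2 higher. Of 18 quiescent HSC genes, 17 had lower values and 0 passed, and 9 had an unadjusted p below 0.05, against 325 and 73 of all 607. Their median was -0.10. Without the 6 ROIs of liver 3, 17 were again lower and 2 passed. Des, which encodes the protein stained to define HSC areas, had a difference of -0.01 (SE 0.03). The 22 contractile and cytoskeletal genes had a median of -0.01, with 9 higher, 13 lower and 0 passing (11 and 11 without the 6 ROIs of liver 3, with a median of 0.01), and 3 had an unadjusted p below 0.05 of which Myh9 (non-muscle myosin) was higher. All 8 mural and pericyte genes had lower values, 1 passing (Rgs5), and 7 of them were lower without those ROIs. The 2 endothelial markers in the table, Plvap and Rspo3, had values of -0.10 and -0.08, and neither passed. Their summed level was 25.35, 23.31, 36.11 and 22.26 in MARCOHi and 29.18, 24.7, 35.96 and 23.66 in MARCOLo ROIs of livers 1 to 4. It was lower in MARCOHi ROIs in 3 of 4 livers, and its part in the matrix result was not tested.

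Of 10 complement genes, 8 had higher values and 1 passed (Serping1), with a median of 0.11. Of all 607 genes, 282 had higher values and 0.329% were called higher. Of the complement genes, 8 were higher and 3 passed without the 6 ROIs of liver 3. C4b and C2 had values of 0.15 and 0.20. The 2 with lower values were the collectins Colec10 and Colec11, which are also on the list of HSC genes. Of 7 stress genes, 0 passed and 3 had higher values at an unadjusted p below 0.05, the metallothionein Mt1 and the endoplasmic reticulum chaperones Hsp90b1 and Hspa5. Mt1 also differed in level between livers, with class means of 341 and 215 in liver 1 and 49.6 and 49.5 in liver 2. Of 9 TGF-beta and BMP genes, 0 passed and 1 had a lower value at an unadjusted p below 0.05, and of 13 matrix enzymes and inhibitors 0 passed and 3 did so. The 8 axon guidance and adhesion genes had 0 passing and a median of -0.04, with 3 lower at an unadjusted p below 0.05.

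Sorted by level, 250 genes were higher in HSC than in Other segments in 4 of 4 livers, and 188 of these had lower values in MARCOHi ROIs, with a median of -0.04. Another 214 genes were lower in HSC than in Other segments in 4 of 4 livers, and 145 of these had higher values in MARCOHi ROIs, with a median of 0.03. Of all 607 genes, 325 had lower and 282 higher values. Of the 8 genes that fell, 6 were in the first set, and both genes that rose were in the second. The part of the low counts of HSC segments in these sets was not tested.

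Marco itself was compared within livers to check the ROI labels where MARCO+ macrophages had been masked out. In liver 1 it ran from 14.5 to 59.7 (median 16.8) in MARCOHi and from 9.61 to 15.1 (median 11) in MARCOLo segments, and in liver 2 from 7.63 to 12.3 (median 9.53) and from 7.18 to 8.44 (median 7.63). In liver 3 it ran from 18 to 34.2 (median 29.2) and from 11 to 59.6 (median 16.5), and in liver 4 from 8.34 to 10.8 (median 9.59) and from 7.08 to 8.89 (median 8.49). The 2 highest MARCOLo values of liver 3, 59.6 and 56.2 in ROIs 006 and 007, came from ROIs that stood apart. Neither ROI has a MARCO+ segment in the series, nor has MARCOHi ROI 004 of liver 1, at 59.7. The other ROIs without one were MARCOHi ROI 003 of liver 3 at 19 and MARCOLo ROIs 001 and 006 of liver 4 at 7.08 and 8.89. Whether MARCO+ areas were masked in these ROIs was not tested. The mean difference was 0.34 on the log2 scale, with 0.96, 0.30, -0.13 and 0.20 in livers 1 to 4 (exact two-sided sign-flip permutation test over 4 livers, p = 0.25). That test cannot go below 0.125. Without liver 1 the difference was 0.13, and without the 6 ROIs of liver 3 it was 0.565, higher in 4 of 4 livers. Among the other macrophage markers in the table, Fcna (ficolin A) had 0.17 and Cd63 (a tetraspanin of lysosomes) -0.16, and neither passed. Marco (limma adjusted p = 0.046) and Fcna passed without the 6 ROIs of liver 3. The summed level of the 3 markers was 46.26, 28.55, 58.04 and 31.78 in MARCOHi and 35.86, 26.9, 64.5 and 27.89 in MARCOLo ROIs. It was higher in MARCOHi ROIs in 3 of 4 livers, but it includes Marco, and the ROIs were picked for their MARCO staining. On the log2 scale, Fcna differed by 0.405, 0.205, -0.256 and 0.327 in livers 1 to 4. Cd63 differed by -0.405, -0.165, -0.11 and 0.0497. The part of the summed level in the results above was not tested.

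Next, the labelled pairs were examined on their own. In livers 1 and 3, labelled treated CCl4, 22 genes passed (3.62% of those tested), 4 higher (0.659%) and 18 lower (2.97%). In livers 2 and 4, labelled control, 2 genes passed (0.329%), Gstm2 and Tsc22d1, both lower. All 4 livers shared 1 estimate of the spread in these fits. Of the 22 genes, 9 were also called over all 4 livers, and both genes of the control pair were called in the treated pair. Gstm2 differed by -1.13 (SE 0.16, limma adjusted p = 0.00444) in the treated pair and by -0.96 (SE 0.16, limma adjusted p = 0.0474) in the control pair. Tsc22d1 differed by -0.34 and -0.52 (limma adjusted p = 0.0493 and 0.0474).

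Matrix genes were among those called in the treated pair. Dcn differed by -0.82 (SE 0.06, limma adjusted p = 0.000127), Ecm1 by -0.62 (SE 0.08, limma adjusted p = 0.00334), Col3a1 by -0.58, Col1a1 by -0.45, Bgn by -0.45, Col1a2 by -0.35, Col14a1 by -0.30 and Lum by -0.24, all past the threshold. Hgf (hepatocyte growth factor), Reln and Colec11, genes of quiescent HSCs, also passed at -0.32, -0.42 and -0.36. The genes that rose were Mt1 at 0.50, Hsd11b1 at 0.38, Serping1 at 0.27 and Calr (calreticulin) at 0.24. In the control pair the same matrix genes had values of -0.31 (Dcn), -0.22 (Ecm1), -0.29 (Col3a1), -0.30 (Col1a1), -0.15 (Bgn), -0.02 (Col1a2), -0.13 (Col14a1) and -0.03 (Lum), and none of these passed. Without the 6 ROIs of liver 3 the treated pair had 15 genes. Without the ROI of liver 4 that has no class in its library name it had 12 and the control pair 0.

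The difference between the pairs was then tested as an interaction. By limma 0 genes (0%) passed and 34 had an unadjusted p below 0.05, of which 32 had a lower and 2 a higher change in the treated pair. Without the 6 ROIs of liver 3, 0 passed and 30 had an unadjusted p below 0.05, and edgeR on the recovered counts of all ROIs called 2. The 3 lowest p among genes with a more negative change in the treated pair were Dcn at -0.51 (limma adjusted p = 0.128), Sparc (osteonectin) at -0.31 and Hgf at -0.29 (both limma adjusted p = 0.519). In the other direction they were Hsd11b1 at 0.19, Myl9 at 0.19 and Erlec1 at 0.19 (limma adjusted p from 0.828 to 0.913). A difference between the labelled pairs is therefore not shown for any gene by this test.

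Finally, the change in Other segments was set against that in HSC segments of the same livers. The 41 HSC segments came from fewer ROIs than the 49 Other segments, so the 2 changes do not rest on the same ROIs. MARCOLo ROIs 006 and 007 of liver 3 have no HSC segment and held the highest Other values of Col1a1 in that liver, 11.9 and 18.8. HSC segments were shallower, with 1448 to 16715 recovered counts and a median of 3089 in MARCOHi and 4602.5 in MARCOLo ROIs. Their upper quartile was 3 to 30 counts, against 132 to 802.5 in Other segments, so most HSC values rest on few counts. The part of this in the differences below was not tested. The change differed for 12 genes (1.98%), 10 with a higher change in Other segments and 2 with a lower one. This count was 3, 7 and 7 without liver 2, 3 or 4, 4 without the ROI of liver 4 that has no class in its library name, and 10 without the 6 ROIs of liver 3. Fgfr2 had values of 0.42, 0.30, 0.08 and 0.20 in Other and -0.78, -1.03, -1.41 and -0.87 in HSC segments of livers 1 to 4, opposite in sign in each liver. The difference of the changes was 1.27 (SE 0.20, limma adjusted p = 0.000369). Cxcl12, a chemokine of stromal cells, had 0.00 in Other and -1.07 in HSC segments (difference 1.07, SE 0.21, limma adjusted p = 0.00286). Lum had -0.13 and -1.18 (difference 1.05, SE 0.20, limma adjusted p = 0.00286). The other genes with a higher change in Other segments were Fcna, Col6a2, Gdf10, Plac8, Efemp1, Arvcf and Abcc9, at 0.76 to 0.91. In the other direction, Myl9 (a myosin light chain of contractile cells) had -0.11 in Other and 0.85 in HSC segments (difference -0.97, SE 0.21, limma adjusted p = 0.00826), and Ccn2 (connective tissue growth factor) had 0.01 and 0.78 (difference -0.77, SE 0.21, limma adjusted p = 0.0484). Ccn2 did not pass without the 6 ROIs of liver 3 (limma adjusted p = 0.0568).

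**Figure D4:**
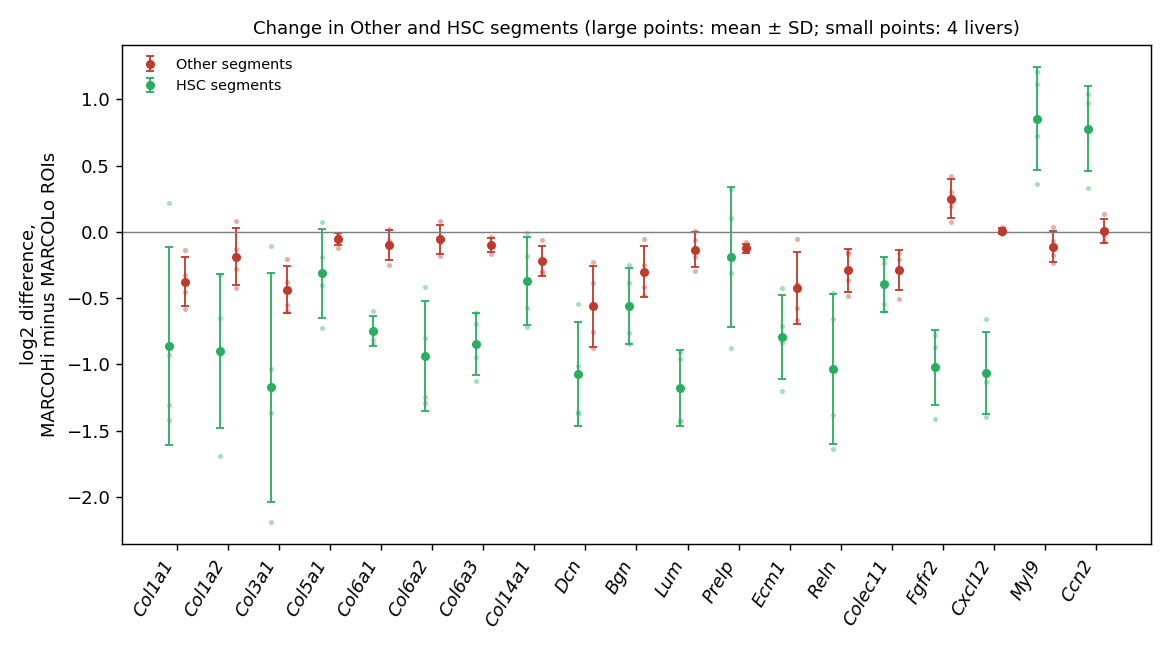
Log2 difference, MARCOHi minus MARCOLo ROIs (y axis), of 19 genes in Other and HSC segments. Large points are means with ± SD over 4 livers and small points are the livers. Fgfr2 and Cxcl12 are near or above 0 in Other and below 0 in HSC segments, while Myl9 and Ccn2 are at -0.11 and 0.01 in Other and at 0.85 and 0.78 in HSC segments.

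For the matrix genes called in Other segments, the difference between segment types did not pass. Col3a1 had -0.43 in Other and -1.17 in HSC segments (difference 0.74, SE 0.23, limma adjusted p = 0.0879), Dcn had -0.56 and -1.07 (limma adjusted p = 0.24) and Col1a1 had -0.38 and -0.86 (limma adjusted p = 0.324). The collagen chains had a median of -0.10 in Other and -0.75 in HSC segments. Gstm2 had -1.04 in Other, -0.65 in HSC and -1.06 in MARCO+ segments. MARCO+ segments had an upper quartile of 6 to 48 recovered counts, against 132 to 802.5 in Other segments. The 45 MARCO+ and 49 Other segments do not rest on the same ROIs. The part of either in the values for MARCO+ segments was not tested. Against MARCO+ segments, limma called 0 genes (0%) and 50 had an unadjusted p below 0.05, and 0 and 64 without the 6 ROIs of liver 3. The lowest p were those of Marco at -1.14 (limma adjusted p = 0.0868), Cd63 at 0.84, Gdf10 at 0.67 and Fcna at -0.86 (each limma adjusted p = 0.089). Marco had 0.34 in Other and 1.48 in MARCO+ segments.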

How the data were processed

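FFPE liver sections were profiled on the NanoString GeoMx platform with the mouse whole transcriptome panel. The authors converted reads with bcl2fastq 2.20.0.422, counted deduplicated tags with the GeoMx NGS pipeline, filtered with GeomxTools, normalized to the upper quartile (Q3) and reduced the table to genes of stellate cells. The deposited signal values are Q3-normalized counts. Over the table, the upper quartile equalled 26.074 in all 159 segments, and 96513 of 96513 values were whole multiples of a step of their segment (relative tolerance 1e-06), which gave the recovered counts. Raw reads were not analysed here.

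Segment, ROI class, liver and treatment label came from the sample titles and descriptions. Other segments were averaged per liver and class on the linear scale, put on log2(value + 1) and fitted with limma 3.58.1 in R 4.3.3, with liver as a block, over 607 genes and a Benjamini-Hochberg threshold of 0.05. The block rests on both classes coming from the same animal: deviations from the class means correlated at 0.687 to 0.901 within a liver. The animal is the replicate, and p-values measure the spread between 4 livers. limma moderated that spread with the spread of the other genes (4.397 prior and 3 residual degrees of freedom over all 4 livers). Alternatives were other pseudocounts, filters, averages, scalings and left-out livers, edgeR 4.0.16 and DESeq2 1.42.0 on summed recovered counts, and a linear mixed model (lmerTest 3.1.3). Scripts were tested on simulated data. Named genes were the genes past the threshold with 1 sign in 4 of 4 livers (up to 10 each way), up to 6 each way that did not pass, 3 each way for other contrasts, Marco, and genes the study discusses; 1 gene that the rule names is not reported here. Axon guidance genes were matched by name, leaving out Ephx1, an epoxide hydrolase. The members and lists were chosen with earlier results of these data known.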

Additional observations from a re-analysis of the deposited data

Results flagged for a closer look

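Within a liver and ROI class, single segments stood far from the others in 11 of 77 sets of segments checked for the 10 called genes and Marco. The cut-off is set for about 1 set in 20 where values are normal and sets independent. These sets share segments across genes, so that rate is no baseline for the 11. ROI 004 of the MARCOHi class of liver 1 stood high for 4 genes: Marco at 59.7 against 14.5 to 21.3, Col3a1 at 20.2 against 7.87 to 9.56, Dcn at 25.9 against 10.8 to 16.3, and Col1a1 at 10.1 against 4.8 to 6.61. The series holds no MARCO+ segment of that ROI. In the MARCOLo class of liver 3, ROI 001 stood high for Gstm2 at 120 against 56.5 to 77.9 and for Tsc22d1 at 24 against 17.5 to 19.4. Col3a1 was 25 in ROI 006 of the MARCOLo class of liver 1, against 13 to 16.2. Col1a1 was 9.01 in ROI 007 of the MARCOHi class of liver 2, against 4.4 to 6.25, and 8.69 in ROI 007 of the MARCOHi class of liver 3, against 5.37 to 6.28. Low segments were Serping1 at 172 in ROI 004 of the MARCOHi class of liver 2, against 186 to 196, and Dynll1 at 11.2 in ROI 003 of the MARCOHi class of liver 1, against 13.8 to 15.1. None of 28 sets of 4 within-liver differences held such a value.

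The change from MARCOLo to MARCOHi ROIs differed between Other and HSC segments for 12 genes by limma. Of those named, the difference was 1.27 for Fgfr2, 1.07 for Cxcl12, 1.05 for Lum, -0.965 for Myl9 and -0.77 for Ccn2.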

How the results depend on the processing

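All 10 genes called over 4 livers kept their direction in 15 alternatives, and between 0 and 10 of them passed. In the alternatives that left out a liver the direction could not turn, since each gene had 1 sign in 4 of 4 livers. The count of 10 became 35 with a pseudocount of 5, 28 without genes whose mean value was below 10, 25 with means of log2 values, 5 with medians, 32 re-centred, 16 scaled to the total, 44 with a trended prior, 30 by edgeR, 25 by DESeq2, 77 with single segments and duplicateCorrelation, 83 by the linear mixed model, 31 as the average of the labelled pairs and 19 without the 6 ROIs of liver 3, an alternative chosen after seeing the data. Single-segment fits treat segments of a liver as further samples. Re-centring also used means of log2 values. With no replicate block, 0 genes were called over 4 livers, 0 in the treated pair and 0 in the control pair (18, 19 and 4 at an unadjusted p below 0.05), against 10, 22 and 2 with it. Leaving out 1 liver gave 0 to 21 genes over all livers, 3 to 11 for Other minus HSC, 0 for Other minus MARCO+ and 0.127 to 0.49 for Marco. Leaving out a liver of the other pair gave 28 genes in the treated pair and 2 in the control pair. No such count is given for a pair left with 1 liver, nor for the difference between pairs. The 22 genes of the treated pair became 14 with no pseudocount, 12 without the ROI lacking a class in its library name, 44 with a trended prior, 13 by DESeq2, 46 with duplicateCorrelation and 41 by the linear mixed model. The 2 genes of the control pair became 0 with no pseudocount, medians, scaling to the total, without that ROI or by edgeR, 4 without low genes, 5 with a trended prior, 1 by DESeq2 and 21 by the linear mixed model. The 0 genes of the interaction became 1 with a pseudocount of 5, without low genes, with medians, with a trended prior or by DESeq2, and 2 by edgeR. The 12 genes for Other minus HSC became 22 with a pseudocount of 5, 7 with medians, 6 re-centred, 4 scaled to the total and 4 without that ROI. The 0 genes for Other minus MARCO+ became 3 with a pseudocount of 5, 1 with means of log2 values, 2 re-centred and 1 scaled to the total. Cxcl12 over 4 livers, at 0.00495, turned to -0.000964 with medians, -0.0215 scaled to the total, -0.005 without liver 4, -0.0107 by edgeR and -0.00698 by DESeq2. The cause of these shifts was not tested. No alternative changed the depth.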
